A study of Homo sapiens with 6 samples.

Results

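MAP2 and the genes grouped with it here encode microtubule-associated proteins. They were followed in H1299, a human line grown from non-small cell lung cancer. The set was chosen by name around MAP2, which itself had been selected from its large difference between PD 0332991 and DMSO arrays, so the values of this comparison for these genes are given as a description, without p-values, and nothing is read from the count of them that the fit over all genes called. Transcript clusters were kept where the platform annotation gives exactly 1 gene symbol and that symbol is a named one. These were 9 of the 65535 clusters, for 8 genes of the 22375 that could be tested: MAP2, MAPT and MAP4, MAP1A and MAP1B, MAP6, MAP7 and DCX. The ninth named gene, STMN1, shares its only annotated cluster with a microRNA gene, so no value is given for it. Cultures received 500 nM PD 0332991 in DMSO, or DMSO alone, over 14 days, and each treatment had 3 arrays of total RNA. PD 0332991 (palbociclib) inhibits the kinases CDK4 and CDK6, and the study's title frames it as a means to reactivate the retinoblastoma protein pRB. All groups are the parental form of 1 cell line, at 1 dose and 1 time, and the labels do not say that arrays of a group came from separate cultures, so every spread below is a spread between these arrays, which may be technical.

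Microtubules are hollow polymers of tubulin that grow and shrink at their ends. Microtubule-associated proteins bind along the polymer and stabilise, bundle or space it, and they steer which motors travel on it. In neurons MAP2 is known as the protein of dendrites and tau, the product of MAPT, as that of axons. MAP4 is their counterpart in dividing and non-neuronal cells. MAP2, tau and MAP4 share a repeated tubulin-binding region near the C-terminus.

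Values are the authors' deposited values per transcript cluster, taken as log2, and their medians per array lay between 4.85 and 4.98. The table reaches 19.9, above what a plain log2 of a 16-bit scanner can give, so a difference of 1 need not be a doubling of RNA. There are no detection flags, and a value at or under the array median was not shown to be above background. Arrays of a group correlated across clusters at 0.993 to 0.995 (Pearson's r), and arrays of different groups at 0.969 to 0.973, where clusters do not count as replicates. The line's epithelial keratin genes KRT8 and KRT18 and the intermediate filament gene VIM lay far above the array medians in both groups (KRT8 at 14.83 and VIM at 15.10 under PD 0332991, and 14.03 and 15.67 under DMSO), while KRT19 and CDH1, the E-cadherin gene, lay below the array median on all 6 arrays.

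The start sites of MAP2 and MAP1A are shown because these were the members with the widest separation between the groups. The promoter table used here, from RefSeq (GRCh38.p14), holds at least 1 window of 300 bases for 6 of the 8 genes, running from 250 before to 50 after an annotated start. No windows of MAPT and MAP6 were used here. MAP2 has 3 windows on the plus strand of chromosome 2, chr2:209579082-209579381, chr2:209579357-209579656 and chr2:209661246-209661545, of which the first and the second overlap. The first window of MAP1A lies at chr15:43510704-43511003, also on the plus strand. Sequences run 5′ to 3′, and capitals mark any match, on either strand, to the motifs listed after them.
MAP2 window 1: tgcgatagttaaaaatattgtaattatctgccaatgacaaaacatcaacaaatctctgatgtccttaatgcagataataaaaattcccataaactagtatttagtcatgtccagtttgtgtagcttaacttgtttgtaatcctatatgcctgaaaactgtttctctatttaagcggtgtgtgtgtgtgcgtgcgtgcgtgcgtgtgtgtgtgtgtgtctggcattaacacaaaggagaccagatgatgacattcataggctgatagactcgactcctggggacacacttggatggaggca
MAP2 window 2: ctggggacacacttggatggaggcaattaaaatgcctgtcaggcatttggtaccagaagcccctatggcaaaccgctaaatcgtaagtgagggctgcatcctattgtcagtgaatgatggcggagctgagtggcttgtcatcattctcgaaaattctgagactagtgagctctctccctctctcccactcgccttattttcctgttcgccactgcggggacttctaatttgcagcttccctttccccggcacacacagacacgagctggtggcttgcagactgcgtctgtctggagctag
MAP2 window 3: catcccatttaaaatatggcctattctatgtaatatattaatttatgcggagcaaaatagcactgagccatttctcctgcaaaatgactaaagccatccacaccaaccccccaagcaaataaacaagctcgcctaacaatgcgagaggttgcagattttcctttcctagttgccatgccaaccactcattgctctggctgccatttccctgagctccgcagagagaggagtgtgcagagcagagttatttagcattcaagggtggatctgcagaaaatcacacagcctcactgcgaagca
MAP1A window 1: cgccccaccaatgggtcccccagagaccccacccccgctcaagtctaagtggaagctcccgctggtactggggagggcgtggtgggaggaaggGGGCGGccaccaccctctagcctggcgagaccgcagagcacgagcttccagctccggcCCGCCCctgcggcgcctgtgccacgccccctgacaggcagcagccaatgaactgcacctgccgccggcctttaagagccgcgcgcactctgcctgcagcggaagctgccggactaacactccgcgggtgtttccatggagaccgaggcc

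The motifs searched were the GC box GGGCGG, the E2F site as TTTGGCGC or TTTCGCGC, the cell cycle element known as CHR as TTTGAA, and the TATA box as TATAAA. None of these words occurred in the 3 MAP2 windows, which is why they are printed without capitals. The MAP2 windows were 40.0%, 52.3% and 45.3% G and C and held 7, 10 and 5 CpG dinucleotides, against medians of 58.7% and 14 over the 35116 windows of the table. MAP1A window 1 was 69.3% G and C, held 23 CpG dinucleotides and matched the GC box at 2 places, and its second window matched it at 4. Of all windows 45.0% held a GC box, 1.15% an E2F word, 15.2% the CHR word and 11.5% the TATA word. The windows nearest the 5′ end of MAP4, MAP1B and MAP7 were 75.0%, 70.0% and 76.3% G and C and matched the GC box at 3 places each, while no DCX window matched it. No E2F word was found in any window of these 6 genes. The deposited value of a gene does not tell its starts apart.

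MAP2 differed most between the groups. Its values were 9.98, 10.16 and 10.02 with PD 0332991, against 5.01, 5.01 and 5.02 with DMSO. The lowest PD 0332991 array lay 4.96 above the highest DMSO array, and the values within a group were close together. The means were 10.05 ± 0.09 with PD 0332991 and 5.01 ± 0.01 with DMSO (SD, n = 3 each), a difference of 5.04 ± 0.07 (SE). Read as a plain log2 scale this would be a 32.9-fold higher level, but with DMSO the cluster lay just above the array medians, where the signal of the gene was not shown to exceed background, so the size is uncertain. Among the 22375 genes, 4 had a larger rise, and 27 a larger difference in size. Leaving out any 1 array kept the MAP2 difference between 4.99 and 5.08. In bulk RNA, more cells with the transcript and more transcript per cell cannot be told apart.

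**Figure D1:**
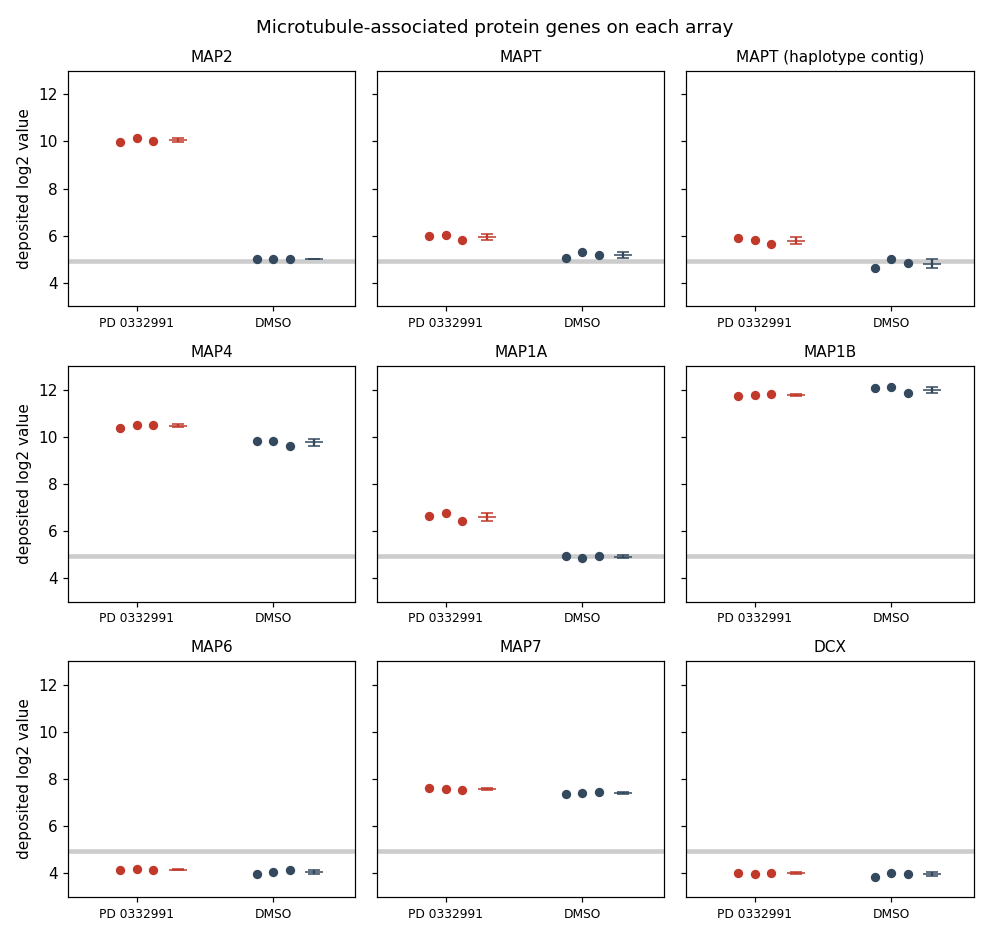
Deposited values, taken as log2 (y axis), of the 9 transcript clusters on each array, with PD 0332991 in red at left and DMSO in dark blue at right. Points are arrays, the mark beside them is the mean ± SD (n = 3 each), and the grey band spans the array medians (4.85 to 4.98). MAP2 stands at 10.05 against 5.01, whereas MAP6 and DCX stay under the band in both groups.

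MAPT, whose product tau belongs to the same protein family as MAP2, was higher with PD 0332991 on a smaller scale. Its values were 5.99, 6.03 and 5.81 with PD 0332991, against 5.05, 5.30 and 5.19 with DMSO. The groups did not overlap, with a gap of 0.52, and the difference was 0.76 ± 0.09 (SE, n = 3 each). The means were 5.94 ± 0.12 with PD 0332991 and 5.18 ± 0.12 with DMSO (SD). All 3 PD 0332991 values of MAPT lay above their array medians, and so did its 3 DMSO values. A second MAPT cluster, whose identifier names an alternative haplotype contig of chromosome 17, gave 5.92, 5.82 and 5.65 with PD 0332991, against 4.62, 5.01 and 4.83 with DMSO. It differed by 0.98 ± 0.12, and 2 of its 3 DMSO values lay under their array medians. Both clusters name the same gene and may share probes, so the second is no independent measurement of the first.

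MAP4 was higher with PD 0332991 from a level well above the array medians. Its values were 10.39, 10.51 and 10.49 with PD 0332991, against 9.83, 9.83 and 9.60 with DMSO. Every PD 0332991 array lay above every DMSO array by at least 0.56, and the means of 10.46 ± 0.06 with PD 0332991 and 9.75 ± 0.13 with DMSO (SD, n = 3 each) differed by 0.71 ± 0.09 (SE). The DMSO spread came mostly from replicate 3, which lay 0.22 under the other arrays of its group. MAPT and MAP4 thus had differences of 0.76 and 0.71, each less than 1, beside 5.04 in MAP2. With DMSO, MAPT lay near the array medians at 5.18 and MAP4 far above them at 9.75. The second MAPT cluster differed by 0.98, so an equal size of the 2 differences was not shown.

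The genes of the MAP1 pair did not differ alike, and MAP1B was not called in the fit over all genes. MAP1A and MAP1B encode large precursors that are cut into a heavy and a light chain, and in the nervous system MAP1B is known as the earlier and MAP1A as the later form. MAP1A had 6.63, 6.76 and 6.40 with PD 0332991, against 4.95, 4.85 and 4.92 with DMSO. Its groups were 1.45 apart at their nearest and the difference was 1.69 ± 0.10 (SE, n = 3 each), but 2 of the 3 DMSO values lay under their array medians, so its size is uncertain too. The means were 6.60 ± 0.18 with PD 0332991 and 4.91 ± 0.05 with DMSO (SD). With PD 0332991 all 3 MAP1A values lay above the array medians. MAP1B had 11.70, 11.77 and 11.80 with PD 0332991, against 12.05, 12.09 and 11.85 with DMSO. Here the DMSO arrays were the higher ones, with a gap of only 0.05 and a difference of -0.24 ± 0.08. The spread within DMSO, with an SD of 0.13, was wider than that gap. DMSO replicate 3 was the lowest of its group, as in MAP4, and without it the MAP1B difference was -0.31. MAP1B lay well above the array medians on all 6 arrays.

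The other members separated the groups barely or not at all. MAP7, which recruits the motor kinesin-1 to microtubules, had 7.61, 7.58 and 7.53 with PD 0332991, against 7.35, 7.42 and 7.43 with DMSO. The groups were 0.10 apart and the difference was 0.17 ± 0.07 (SE, n = 3 each). MAP6, known for making microtubules resistant to cold, had 4.13, 4.17 and 4.15 with PD 0332991, against 3.98, 4.04 and 4.15 with DMSO. DCX, the doublecortin gene of migrating neurons, had 4.03, 3.98 and 4.02 with PD 0332991, against 3.85, 4.03 and 3.99 with DMSO. In both genes the groups overlapped and all 6 values lay under the array medians, with differences of 0.09 ± 0.07 for MAP6 and 0.05 ± 0.07 for DCX. These clusters were not shown to be above background in either group, so a lack of response in MAP6 and DCX was not shown.

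Of the 8 genes, 5 had every PD 0332991 array above every DMSO array, 1 had every PD 0332991 array below, and 2 overlapped, where 24.6% and 22.9% of all tested genes lay wholly above and wholly below. At an adjusted p under 0.05 by limma, 4 of the 8 (MAP2, MAPT, MAP4 and MAP1A) were called higher and 0 lower, against 19.6% and 18.5% of all tested genes, or 38.1% in both directions. Because MAP2 was chosen on this contrast, nothing is read from these counts. In size, the MAP1A difference was larger than that of 96.5% of all tested genes, and those of MAPT and MAP4 larger than 85.0% and 83.5%. For MAP1B the share was 58.9% and for MAP7 50.2%, near the middle of the table. For MAP6 and DCX it was 32.2% and 21.4%. The median difference was 0.44 over the 8 genes and 0.00 over all genes, and the median size without sign was 0.48 and 0.17. Replicate 2 was the highest PD 0332991 array in MAP2, MAPT, MAP4 and MAP1A alike.

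**Figure D2:**
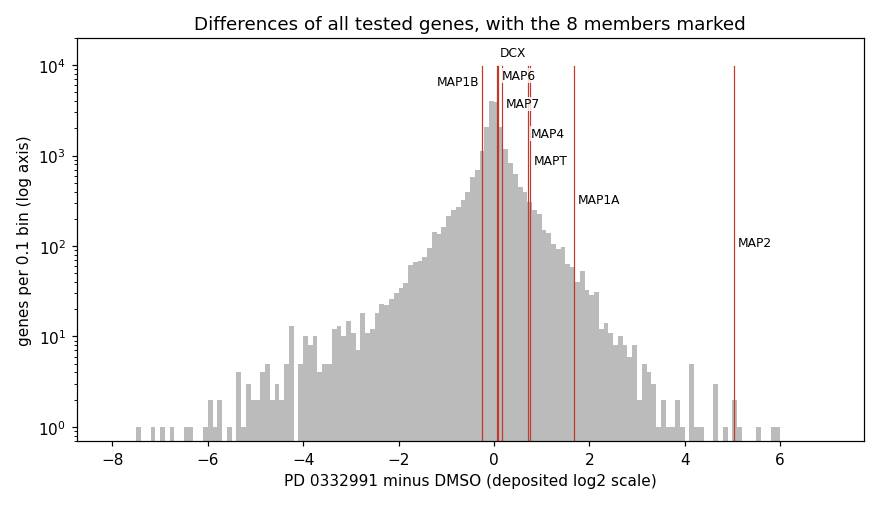
Histogram of the difference PD 0332991 minus DMSO for all 22375 tested genes (x axis, deposited log2 scale; y axis, genes per bin on a log axis), with red lines at the 8 members. MAP2 at 5.04 and MAP1A at 1.69 lie in the right tail, MAPT and MAP4 at 0.76 and 0.71, and the rest near the centre.

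For a search of profiles like that of MAP2, symbols of unnamed loci, long intergenic, antisense and small RNAs and olfactory receptors were left out. Among the remaining genes, those whose profile over the 6 arrays lay nearest were found by the Euclidean distance between values centred on each gene's mean. They were IFI6 at a distance of 0.27, IFI44L at 0.31, LGALS3BP at 0.46, ARRB1 at 0.51 and ABCA1 at 0.56, on the log2 scale. IFI6 and IFI44L are known as interferon-induced genes, LGALS3BP encodes a secreted galectin-binding glycoprotein, ARRB1 a beta-arrestin and ABCA1 a cholesterol transporter. Their differences were 4.87 in IFI6, 5.01 in IFI44L, 5.18 in LGALS3BP, 4.65 in ARRB1 and 4.62 in ABCA1. With DMSO, IFI44L lay under the array medians at 4.55 ± 0.14 (SD, n = 3), next to which MAP2 had 5.01 ± 0.01, while IFI6 had 12.01 ± 0.06. MAP2 had the smallest SD of the 6 genes within DMSO. The distance is set almost wholly by the size of the step between the groups, so it is a description of these arrays.

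**Figure D3:**
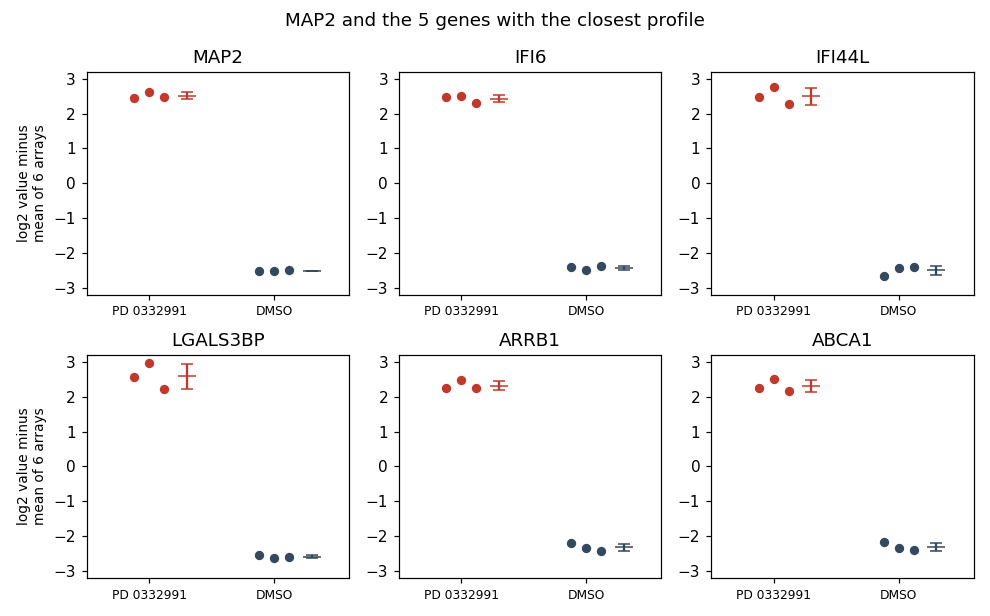
MAP2 and the 5 genes with the smallest distance to it among those ranked, as log2 values minus the gene's mean over the 6 arrays (y axis), with PD 0332991 in red at left and DMSO in dark blue at right. Points are arrays and the mark beside them is the mean ± SD (n = 3 each), and the steps run from 4.62 in ABCA1 to 5.18 in LGALS3BP.

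Tested genes next to the members on the chromosome were compared with them, by a rule added after the data were seen (the nearest 2 on each side by gene midpoint in RefSeq). Of the 32 neighbours 9 were called higher and 7 lower by limma (50.0%, against 38.1% of all tested genes). The neighbours were not matched to the table for level, so nothing is read from that share. None of the 4 neighbours of MAP2 on chromosome 2 had a difference near 5.04. By limma KANSL1L rose by 0.70 ± 0.08 (SE, n = 3 each; adjusted p = 0.000254), PIKFYVE by 0.30 ± 0.09 (adjusted p = 0.0236) and UNC80 by 0.21 ± 0.07 (adjusted p = 0.0452), while PTH2R had a difference of 0.03 ± 0.09 (adjusted p = 0.867). The UNC80 call was lost without any 1 of the 6 arrays (limma adjusted p = 0.0567 to 0.138), and the PIKFYVE call without DMSO replicate 3 (0.0587), PD 0332991 replicate 2 (0.0740) or PD 0332991 replicate 3 (0.0530). UNC80, with means of 4.74 under PD 0332991 and 4.53 under DMSO, and PTH2R, with 4.12 and 4.09, lay under the array medians, so neither was shown to be above background. Beside MAPT, the antisense gene MAPT-AS1 had a difference of 0.02 ± 0.12 (adjusted p = 0.948), whereas KANSL1, a subunit of a histone acetyltransferase complex, rose by 1.06 ± 0.08 (adjusted p = 1.58e-05), beside 0.76 in MAPT. Beside MAP1A, PPIP5K1 rose by 1.32 ± 0.09 (adjusted p = 7.19e-06) and TP53BP1 by 0.94 ± 0.07 (adjusted p = 1.05e-05), and TUBGCP4, of the gamma-tubulin complex, fell by 1.23 ± 0.07 (adjusted p = 3.12e-06). Beside MAP4, the phosphatase gene CDC25A fell by 2.76 ± 0.14 (adjusted p = 2.16e-06). For the other members, the called neighbour with the widest difference was MRPS27 beside MAP1B, which fell by 1.15 ± 0.07 (adjusted p = 6.37e-06 by limma), SERPINH1 beside MAP6, which rose by 0.97 ± 0.12 (adjusted p = 0.000241), and MAP3K5 beside MAP7, which fell by 0.53 ± 0.09 (adjusted p = 0.00224). Beside DCX, CAPN6 rose by 1.39 ± 0.08 (adjusted p = 5.15e-06) and SERTM2 rose by 1.03 ± 0.18 (adjusted p = 0.00175), with DMSO means of 4.27 and 3.91 that lay under the array medians.

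Other genes of microtubule regulation were grouped by role, as a setting for the members. In the list of proteins that bind microtubule ends 12 of 21 measured genes rose, 6 fell and 3 did not pass. This is 85.7% called, against 38.1% of all tested genes (19.6% higher and 18.5% lower). The median difference was 0.25, and none of these genes lay under the array medians on all 6 arrays. CLIP3 is on this list, although its product is known as a linker protein of Golgi membranes. It rose by 3.49 ± 0.10 (SE, n = 3 each; limma adjusted p = 1.56e-07), with means of 11.89 ± 0.10 under PD 0332991 and 8.40 ± 0.17 under DMSO (SD). NAV3, a neuron navigator that tracks growing ends, fell by 2.55 ± 0.09 (adjusted p = 3.69e-07), and CKAP5, a microtubule polymerase, fell by 1.26 ± 0.07 (adjusted p = 3.14e-06). Over all 6 role lists 66 of 113 measured genes passed (58.4%, against 38.1% of all tested genes), 35 higher and 31 lower, with a median of 0.01. The lists were not matched to the table for the level of their genes, and only 15 of the 113 lay under the array medians on all 6 arrays. When the 11187 genes with a mean level above that of the median gene were fitted alone, 7989 were called. Nothing is therefore read from a list's share lying above 38.1%.

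Kinases and phosphatase subunits that act on microtubule-associated proteins formed the largest list. In it 13 of 30 genes rose, 8 fell and 9 did not pass, with a median of 0.01. This is 70.0% called, against 38.1% of all tested genes (19.6% higher and 18.5% lower). The list's median levels were 9.05 under PD 0332991 and 8.54 under DMSO, well above the array medians. When the brighter genes were fitted alone, 7989 of 11187 were called, so the 70.0% is not read as a trait of this list. MARK4, a kinase that detaches MAP2, tau and MAP4 from microtubules, rose by 1.75 ± 0.08 (SE, n = 3 each; adjusted p = 1.47e-06 by limma), and the tau kinase gene GSK3B rose by 1.09 ± 0.07 (adjusted p = 5.75e-06). The other MARK genes, named after their values were seen, differed in both directions. By limma MARK2 rose by 0.41 ± 0.07 (adjusted p = 0.00222), while MARK1 fell by 0.47 ± 0.08 (adjusted p = 0.00232) and MARK3 by 0.40 ± 0.06 (adjusted p = 0.00125). MAP2 is an anchor for cyclic AMP-dependent kinase through its type II regulatory subunits. Of that kinase the catalytic subunit gene PRKACA rose by 1.28 ± 0.08 (adjusted p = 8.10e-06), and the type II regulatory genes PRKAR2A and PRKAR2B, named after their values were seen, fell by 0.86 ± 0.09 (adjusted p = 8.16e-05) and fell by 0.77 ± 0.07 (adjusted p = 3.11e-05).

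Of 21 measured genes of other structural microtubule-associated proteins 3 rose, 6 fell and 12 did not pass (42.9% called, against 38.1% of all tested genes), with a median of -0.02. JPT2 fell by 1.69 ± 0.12 (SE, n = 3 each; limma adjusted p = 1.21e-05), EML5 fell by 1.55 ± 0.09 (4.77e-06) and its relative EML1 rose by 1.25 ± 0.10 (2.17e-05). Of 10 measured stathmin and doublecortin genes 2 fell and 8 did not pass. These 2 of 10 stand against 38.1% of all tested genes called, and 18.5% called lower. The 2 were STMN3, which fell by 0.42 ± 0.07 (limma adjusted p = 0.00111), and DCLK2, which fell by 0.39 ± 0.08 (0.00554). In that list 6 genes lay under the array medians on all 6 arrays, as DCX did. Of 8 measured severing genes 1 rose, 3 fell and 4 did not pass (50.0% called, against 38.1% of all tested genes). FIGNL1 fell by 1.10 ± 0.10 (limma adjusted p = 4.42e-05) and KATNBL1 by 0.95 ± 0.08 (2.29e-05). KATNA1, the catalytic subunit of katanin, fell by 0.92 ± 0.09 (6.94e-05). Of 23 tubulin-modifying genes 6 rose, 6 fell and 11 did not pass (52.2% called, against 38.1% of all tested genes). TTLL12 fell by 1.11 ± 0.07 (limma adjusted p = 9.04e-06) and TTLL3 rose by 0.98 ± 0.08 (3.21e-05). The deacetylase gene SIRT2 rose by 0.86 ± 0.07 (1.75e-05).

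MAP2 is widely used as a marker of neurons, so a list of neuronal and neuroendocrine markers was set beside it. Of 19 measured genes on the list 4 rose, 3 fell and 12 did not pass (36.8%, against 38.1% of all tested genes). The median difference was 0.03. The risers include REST, which is no marker of neurons but a repressor of neuronal genes. The mean level over the list, REST included, was 6.18 to 6.23 on the PD 0332991 arrays and 6.09 to 6.17 on the DMSO arrays. REST alone had 10.30 to 10.39 on the PD 0332991 arrays and 9.73 to 9.95 on the DMSO arrays. It thus adds to the gap between those means, which are not read as a rise of neuronal markers. The neuronal markers RBFOX3, SYP, SYN1, NCAM1, ELAVL3, ELAVL4 and CHGA, 7 in all, lay under the array median on all 6 arrays. Others lay well above it in both groups. INA had means of 12.94 under PD 0332991 and 13.95 under DMSO. ENO2 and SYT1, named after their values were seen, had 8.08 and 8.12 under PD 0332991 and 8.49 and 7.52 under DMSO. The neuronal intermediate filament gene INA fell by 1.01 ± 0.06 (SE, n = 3 each; limma adjusted p = 5.95e-06), the secretory granule gene CHGB rose by 0.80 ± 0.11 (0.000634) and the synaptic scaffold gene DLG4 rose by 0.61 ± 0.07 (0.000121). REST, which is on the list as a repressor of neuronal genes and was picked out with its value known, rose by 0.52 ± 0.08 (0.000964). Whether any of these bears on the MAP2 difference was not tested.

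**Figure D4:**
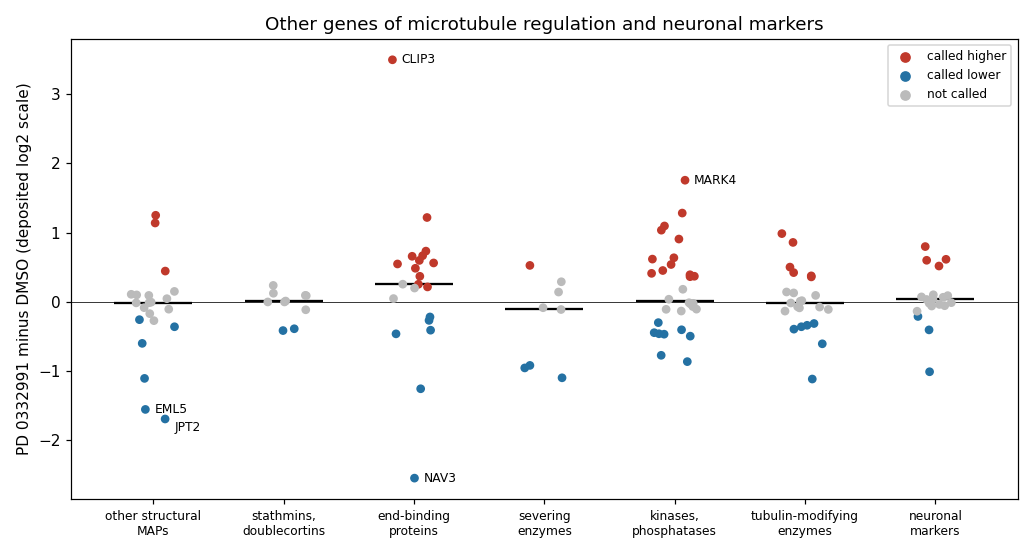
Differences PD 0332991 minus DMSO (y axis, deposited log2 scale) of every measured gene in the 6 role lists and the neuronal marker list. Each point is a gene, red where called higher, blue where called lower and grey where not called at an adjusted p under 0.05, with a black line at the list's median. CLIP3 at 3.49 is the highest point and NAV3 at -2.55 the lowest.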

How the data were processed

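Total RNA of H1299 cells was measured on 6 arrays, 3 per treatment. The authors deposited log2 values per transcript cluster, made with Affymetrix Expression Console per the submitters' processing notes. A log2 base was assumed from the values, which do not settle it. The tool's version, background step and normalization were not given in the sources used here. Both an Affymetrix and a NuGEN preparation kit are named in the labels, which do not settle the one used. Of 65535 clusters, 22685 had 1 symbol in the platform annotation, 1385 had several and 41465 were not listed. For 296 genes with several clusters the one with the highest mean was used, leaving 22375 genes and no filter on dim ones.

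PD 0332991 minus DMSO was fitted across all genes with limma 3.58.1 (lmFit and eBayes, R 4.3.3), two-sided, with Benjamini-Hochberg adjustment over all genes, and adjusted p-values in the text come from that fit. The fit was tested on simulated data. The number of arrays limits the precision (median SE 0.0875). The members and the gene lists were chosen with earlier results of these data known. Named genes are the members, up to 3 called genes with the largest change per list, and the 5 profiles nearest MAP2; neighbours and genes so marked were added after values were seen. Some listed genes, MAP10, DCDC1, TUBB3 and NEUROD1 among them, were not analysed here. The labels do not say that replicate numbers mark a shared culture, so replicate number is not a term of the model. Same-numbered arrays of the 2 groups had r of deviations from group means of -0.33, -0.15 and 0.10. Pairs of different number had -0.30 to 0.41. With 3 arrays per group these values cannot decide whether arrays share a batch. Alternatives were 3 scalings, a filter on dim genes, the mean of clusters, array weights, trend with robust fitting, the replicate block and leaving out each array.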

Additional observations from a re-analysis of the deposited data

How the results depend on the processing

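The difference of MAP2 stayed between 4.98 and 5.08 under the 14 alternatives, and that of MAP1A, where it was fitted, between 1.61 and 1.79. The difference of MAPT ranged from 0.64 with array weights to 0.87, that of MAP4 from 0.64 to 0.80 and that of MAP7 from 0.12 with cyclic loess to 0.20, and MAP1B stayed negative, from -0.31 to -0.15. MAP1B was called lower with cyclic loess, trend and robust fitting, array weights, without the dimmer genes and without DMSO replicate 3, and MAP7 higher with array weights and without the dimmer genes, which left 4 to 6 members called. Leaving out the dimmer genes removed MAPT, MAP1A, MAP6 and DCX. The count of called genes ranged from 7483 to 10296, and that over the role lists from 61 to 72. With the replicate block 7708 genes were called in all, 63 in the role lists and the same 4 members; the labels do not say what a number shares. The 30 genes of the lists checked singly kept their direction and call in all 419 refits that held them, with adjusted p-values up to 0.0269. Of 15 neighbours named on the chromosomes, 13 kept their call, or their lack of one, in every refit that held them, while with limma PIKFYVE was not called after centring on array medians (adjusted p = 0.0991) and UNC80 was not called after that centring (0.0793), with trend and robust fitting (0.0657) or with the replicate block (0.112), beside the losses without single arrays given with them. No scaling moved the median over all genes by 0.1. The lack of detection flags limits what can be said of MAP6 and DCX, and of the DMSO levels of MAP2, MAP1A and MAPT.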
